A study of Mus musculus with 4 samples.

Results

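The club cell secretory genes are 9 genes taken by symbol from the 40092 rows of a gene count table: the secretoglobins Scgb1a1, Scgb3a2 and Scgb3a1, the airway surface protein Bpifa1, haptoglobin (Hp), the retinal dehydrogenase Aldh1a1, the mucins Muc1 and Muc5b, and the LY6-domain gene Lypd2. All 9 passed the filter on low counts, which kept 16661 genes. The libraries were bulk RNA-seq of GFP+ AT2 cells sorted from lung on day 14 after bleomycin, from 2 Ctrl samples (Alkbh5flox/+; Sftpc-CreERT2; Rosa26-mTmG) and 2 A5-CKO samples (Alkbh5flox/flox; Sftpc-CreERT2; Rosa26-mTmG). Both groups received tamoxifen and bleomycin, and both carried the inducible recombinase driven by Sftpc and the reporter that turns recombined cells green, so Ctrl cells can lose 1 Alkbh5 allele and A5-CKO cells both. Alkbh5 encodes an RNA demethylase, and the comparison asked how the transcriptome of injured AT2 cells differed without it.

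Club cells are the secretory cells of the bronchioles. They are known for the secretoglobins, small secreted proteins of which Scgb1a1 (also called CC10) is the standard marker, and for enzymes that handle inhaled chemicals. AT2 cells are the surfactant-producing progenitors of the alveolus, and cells at the junction of bronchiole and alveolus can carry both Scgb1a1 and Sftpc. Muc1 and Hp are known in AT2 cells too, so they mark secretory epithelium more widely than Scgb1a1, Scgb3a2 or Muc5b. In bulk RNA, fewer cells of a type and less RNA per cell cannot be told apart.

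The sequences upstream of the start sites are shown for a secretoglobin with overlapping groups (Scgb3a1), the member that varied most between libraries (Bpifa1) and a member that was lower in A5-CKO (Muc1), so that the letters can be read beside the values that follow. Each is the 250 bases before the start in RefSeq on GRCm38.p6, and all 3 lie on the plus strand. Scgb3a1 is at chr11:49663345-49663594, Bpifa1 at chr2:154142630-154142879 and Muc1 at chr3:89228806-89229055. Capitals mark matches on either strand to motifs of factors known in lung secretory epithelium. For the lung lineage factor NKX2-1 the core CTCAAG was searched. For the forkhead family, which includes FOXA1 and FOXA2, the search used TGTTTAC. A second forkhead form, searched in the same way over the same windows, was TGTTTGC. The C/EBP family was searched with TTNNGNAAT and with TTGCGNAA, and the STAT family with TTCNNNGAA. The box that places the start of transcription was searched as TATAAA.
Scgb3a1: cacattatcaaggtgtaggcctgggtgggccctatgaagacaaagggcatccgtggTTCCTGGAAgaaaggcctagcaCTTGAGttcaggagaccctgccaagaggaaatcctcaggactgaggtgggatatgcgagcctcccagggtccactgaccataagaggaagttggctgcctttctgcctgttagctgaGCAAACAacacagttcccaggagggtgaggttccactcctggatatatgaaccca
Bpifa1: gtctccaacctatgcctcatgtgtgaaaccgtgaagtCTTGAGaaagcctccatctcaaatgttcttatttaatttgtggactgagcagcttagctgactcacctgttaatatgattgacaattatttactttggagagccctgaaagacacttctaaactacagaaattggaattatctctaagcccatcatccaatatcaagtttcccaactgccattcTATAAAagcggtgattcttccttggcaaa
Muc1: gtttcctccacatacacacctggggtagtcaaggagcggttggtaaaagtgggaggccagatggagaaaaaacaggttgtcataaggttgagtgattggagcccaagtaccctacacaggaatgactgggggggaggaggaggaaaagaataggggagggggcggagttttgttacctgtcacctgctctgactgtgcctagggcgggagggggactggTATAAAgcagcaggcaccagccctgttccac

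The Scgb3a1 window held CTCAAG 172 bases and TGTTTGC 55 bases before the start, both on the opposite strand, and TTCNNNGAA 194 bases before it. The marked matches do not overlap each other. The Bpifa1 window held CTCAAG 213 bases before the start, on the opposite strand, and TATAAA 29 bases before it. The Muc1 window held TATAAA 31 bases before the start and no other motif searched, and both windows of Aldh1a1, the other member with an entry, held none. Among 32851 such windows, 13.3% held CTCAAG, 4.30% TGTTTGC, 7.02% TTCNNNGAA and 12.4% TATAAA, so single matches of this kind are frequent. GC content was 53.6% for Scgb3a1, 39.2% for Bpifa1 and 54.8% for Muc1, against a median of 52.4% over all windows.

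The targeted gene was read first. Alkbh5 had 81.7 and 152 normalized counts (CPM, the count over the library size scaled with edgeR's TMM factors) in Ctrl 1 and 2 against 19.3 and 36.6 in A5-CKO 1 and 2, with a log2 fold change of -2.06 (standard error 0.46). Library totals ran from 18144865 to 20811757 counts, and a floor of 3 counts corresponded to 0.128 to 0.177 CPM, which covers counting error only. Labelled as AT2 cells, the libraries held 7856 to 16371 CPM of Sftpc, while the AT1 markers Ager and Pdpn had 0 to 17 counts and others of the AT1 list were abundant, among them Aqp5 at 10570 to 16597 counts and Emp2 at 14025 to 23911.

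Per length, the members covered a wide range of levels. Divided by exon length, Scgb1a1 stood first at a mean of 3534 CPM per kilobase, followed by Hp at 957 and Muc1 at 739. Scgb3a1 (140), Scgb3a2 (90.3) and Bpifa1 (53.7) formed the middle, and Aldh1a1 (11.4), Lypd2 (6.06) and Muc5b (1.30) were lowest. The ranges over the 4 libraries overlapped between neighbours for Hp and Muc1, for Scgb3a1 and Scgb3a2, for Scgb3a2 and Bpifa1, and for Aldh1a1 and Lypd2, and did not for the other neighbours. By total CPM, Muc1, Scgb1a1 and Hp ranked 30, 31 and 36 among the 16661 genes tested, and Lypd2 ranked 11986. The members together took 0.636% and 0.545% of all counts in the Ctrl libraries, against 0.462% and 0.423% in A5-CKO. Scgb1a1 made up 26.9% to 36.3% of the members' counts.

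**Figure D1:**
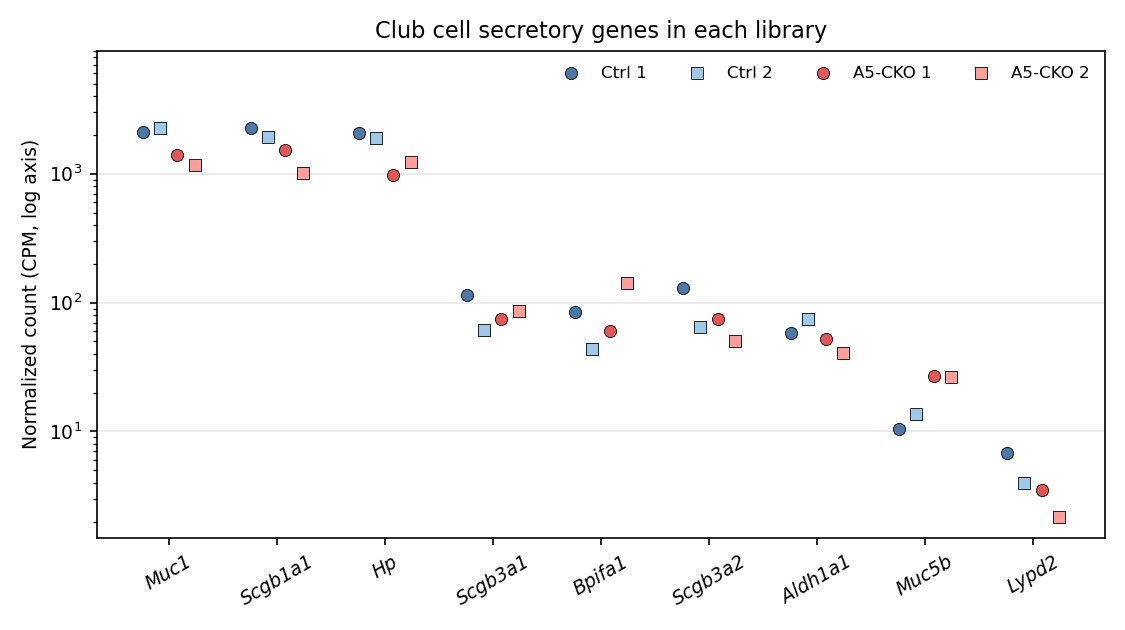
Normalized counts (CPM, log axis) of the 9 club cell secretory genes, with 1 point for each of the 4 libraries. Muc1, Scgb1a1 and Hp sit between 973 and 2267 CPM with both A5-CKO points below both Ctrl points, and Muc5b is the member with both A5-CKO points above (27.0 and 26.3 against 10.5 and 13.8).

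Between the genotypes, the abundant members were lower in A5-CKO by 1.66- to 1.79-fold and Muc5b was 2.19-fold higher, but no member passed the adjusted threshold. The A5-CKO values were both lower than either Ctrl value for 5 of 9 members (Scgb1a1, Hp, Aldh1a1, Muc1 and Lypd2), where 23.5% of all genes tested did, and above them for 1 of 9 (Muc5b), where 20.3% did. For the gene lists below, 23.5% and 20.3% are likewise the shares to set beside counts of separated genes. The log2 fold change was negative for 7 of 9 members with a median of -0.64, against a median of -0.02 over all genes tested. Without Ctrl 1 the members' median was -0.42, without A5-CKO 2 it was also -0.42, and with library totals in place of TMM factors it was -0.34. In edgeR's quasi-likelihood test, 0 of 9 members and 0 of 16661 genes (0%) had a Benjamini-Hochberg adjusted p under 0.05. At an unadjusted p under 0.05 there was 1 member, Muc5b, and 1530 genes (9.18%). DESeq2 with default filtering called 59 of 15306 genes (0.385%) and none of the members. With 2 libraries in each group, a two-sided permutation p cannot go under 0.333, and since the labels give replicate numbers without naming animals, p-values measure the spread between these libraries.

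**Figure D2:**
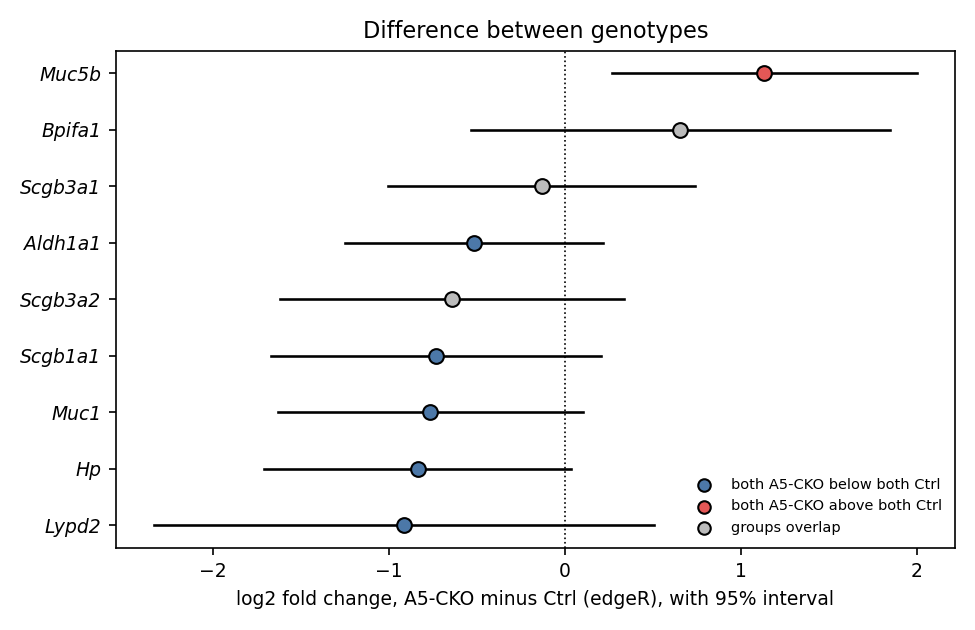
Log2 fold change (A5-CKO minus Ctrl, edgeR) of each member with its 95% interval, coloured by whether the 2 libraries of each genotype overlap. The interval of Muc5b (0.27 to 2.00) lies above 0, and the other 8 intervals include 0.

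Scgb1a1, the secretoglobin that club cells release in bulk, is a gene of 3 exons on chromosome 19, 9083642 to 9087956 (GRCm38.p6, as for all positions here). It had 2262 and 1936 CPM in Ctrl 1 and 2 against 1518 and 1012 in A5-CKO 1 and 2, from 23683 to 38253 reads. The groups did not overlap, and A5-CKO 2 was the lowest library. The means were 2099 ± 230.4 (SD, n = 2) in Ctrl against 1265 ± 358 (SD, n = 2) in A5-CKO. Its log2 fold change was -0.73 (standard error 0.39, 95% interval -1.67 to 0.21, adjusted p = 0.562 from edgeR), or -0.42 both with library totals in place of TMM factors and with a correction for GC content and transcript length.

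The other secretoglobins did not separate by genotype. Scgb3a2, a secreted protein of club cells and of cells at the bronchioalveolar junction (chromosome 18, 43764301 to 43767399), had 129 and 64.3 CPM in Ctrl 1 and 2 against 74.1 and 50.2 in A5-CKO 1 and 2. Ctrl 1 stood above the other three libraries, and Ctrl 2 lay between the A5-CKO values. Its log2 fold change was -0.64 (standard error 0.41, 95% interval -1.62 to 0.34, adjusted p = 0.601), and it was 0.0041 without Ctrl 1 and -1.11 without Ctrl 2. Scgb3a1, known from larger airways (chromosome 11, 49663595 to 49665118), had 114, 61.1, 74.6 and 85.6 CPM in the same order of libraries. Both A5-CKO values lay within the range of the Ctrl values, with a log2 fold change of -0.13 (standard error 0.37, 95% interval -1.004 to 0.74, adjusted p = 0.914). That of Scgb3a1 was 0.45 without Ctrl 1 and -0.56 without Ctrl 2, and 0.17 with library totals in place of TMM factors. The 2 Ctrl libraries differed by 2.01-fold for Scgb3a2 and 1.87-fold for Scgb3a1, against 1.17-fold for Scgb1a1.

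Of the 41 secretoglobin genes in the table, 34 were at 0 in all libraries, and 4 had at least 50 counts in every library. The fourth beside the members was Scgb1c1, a secretoglobin known from nasal mucosa. It had 21.2 and 23.0 CPM in Ctrl 1 and 2 against 4.44 and 5.81 in A5-CKO 1 and 2, and a log2 fold change of -2.11 (standard error 0.41, unadjusted p = 0.0015, adjusted p = 0.528 from edgeR). Its groups did not overlap, as with Scgb1a1.

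Hp, the haemoglobin-binding acute phase protein, lies on chromosome 8 from 109575128 to 109579172 and has 5 exons. It had 2063 and 1877 CPM in Ctrl 1 and 2 against 973 and 1234 in A5-CKO 1 and 2. The Ctrl libraries were within 1.10-fold of each other and both stood above both A5-CKO libraries. The means were 1969.8 ± 132 (SD, n = 2) and 1103 ± 185 (SD, n = 2), and the log2 fold change was -0.84 (standard error 0.37, 95% interval -1.71 to 0.04, unadjusted p = 0.0579, adjusted p = 0.528 from edgeR). With a correction for GC content and transcript length the log2 fold change was -0.42. Among 10 tested acute phase partners, none was called, none had an unadjusted p under 0.05 in edgeR, 1 separated higher and 1 lower, and the median log2 fold change was -0.13, or 0.20 with library totals in place of TMM factors. Lcn2, an antimicrobial that binds bacterial siderophores, had 3784 and 3073 CPM in Ctrl against 2226 and 2529 in A5-CKO, the gene separated lower. Hpx, the haem-binding hemopexin, had 2.37 and 0.931 CPM in Ctrl against 4.71 and 3.29 in A5-CKO, the gene separated higher, with a log2 fold change of 1.28 (unadjusted p = 0.109 from edgeR, the smallest of the list). Stat3 and Socs3, the transducer and the feedback inhibitor of the cytokine signal that drives Hp, had log2 fold changes of -0.25 and 0.11 with overlapping groups.

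Muc1, the membrane mucin of the apical surface (chromosome 3, 89229056 to 89233381, 7 exons), had 2096 and 2267 CPM in Ctrl 1 and 2 against 1400 and 1170 in A5-CKO 1 and 2. It was the least variable of the abundant members, with 1.08-fold between the Ctrl libraries and 1.20-fold between the A5-CKO libraries, and the groups did not overlap. Its log2 fold change was -0.76 (standard error 0.37, 95% interval -1.63 to 0.10, unadjusted p = 0.0759, adjusted p = 0.534 from edgeR), or -0.46 with the GC content and length correction.

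Muc5b, the secreted gel-forming mucin of the airway, was the member with a higher level in both A5-CKO libraries. It lies on chromosome 7 from 141839059 to 141873089, with 49 exons and 14964 exonic bases. It had 178 and 237 reads in Ctrl 1 and 2 against 597 and 616 in A5-CKO 1 and 2, which are 10.5, 13.8, 27.0 and 26.3 CPM. Both A5-CKO libraries were well above both Ctrl libraries and were within 1.03-fold of each other. The means were 12.2 ± 2.31 (SD, n = 2) in Ctrl against 26.7 ± 0.494 (SD, n = 2) in A5-CKO. The fitted log2 fold change of 1.13 (standard error 0.37, 95% interval 0.27 to 2.00) came with an unadjusted p of 0.0176 and an adjusted p of 0.528 from edgeR, so it did not pass over all genes. Set against the other mucin, Muc5b had 5.02 and 6.08 reads per 1000 reads of Muc1 in the Ctrl libraries and 19.3 and 22.5 in the A5-CKO libraries. Per 1000 reads of Scgb1a1 it had 4.65 and 7.12 in Ctrl against 17.8 and 26.0 in A5-CKO. Both ratios were higher in both A5-CKO libraries, which follows from the CPM values, since Muc5b was higher and Muc1 and Scgb1a1 lower there. They are thus no separate evidence, and the share of all genes higher against these denominators was not computed.

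Of 12 other airway mucin and goblet cell genes 11 were tested, none was called and none had an unadjusted p under 0.05 in edgeR. Of those tested 0 separated higher and 1 lower, where 20.3% and 23.5% of all genes tested did. With 11 genes, a count of 0 is not read as a difference from that share. The median log2 fold change was 0.28, or -0.51 without A5-CKO 1. Muc5ac, the gel-forming mucin of goblet cells, had 68 and 16 reads in Ctrl 1 and 2 against 356 and 49 in A5-CKO 1 and 2, so 1 A5-CKO library was high and the other lay within the Ctrl range. Muc4, a membrane mucin, had 22.4, 92.3, 101 and 53.0 CPM in the same order, and Muc20, another membrane mucin, 22.2, 44.3, 28.9 and 18.6. Gp2 had 8.16, 4.19, 11.9 and 7.86 CPM with overlapping groups, and Foxa3, a factor of goblet cells, was at 1.13 to 3.13 CPM. Spdef, the factor that drives goblet cell differentiation, had 0 to 2 reads in every library, under the floor.

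Bpifa1, an antimicrobial surfactant-like protein of the upper airway surface (chromosome 2, 154142880 to 154149217, 9 exons), was the most variable member. It had 85.0 and 44.0 CPM in Ctrl 1 and 2 against 59.9 and 143 in A5-CKO 1 and 2. The highest library was 3.26-fold above the lowest, A5-CKO 1 lay between the Ctrl libraries, and A5-CKO 2 was above all others. The log2 fold change of 0.66 (standard error 0.50, 95% interval -0.54 to 1.85, adjusted p = 0.653 from edgeR) was -0.14 without A5-CKO 2 and 1.28 without Ctrl 1.

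Of the 12 other BPI-fold and gland secretory genes 6 were tested, with 2 separated higher, 2 lower and a median of -0.52 (0.73 with no filter on low counts), and 0 called in edgeR. Bpifb5 had 36.9 and 67.7 CPM in Ctrl against 15.8 and 7.22 in A5-CKO, with a log2 fold change of -2.19 (standard error 0.51, unadjusted p = 0.00374, adjusted p = 0.528 from edgeR). Scgb1c1, described above, was the other of this list at an unadjusted p under 0.05. Lyz1, a lysozyme, had 1461, 2182, 1581 and 732 CPM, and Ltf, the iron-binding lactoferrin, 35.1, 65.9, 29.2 and 47.8. Both overlapped between genotypes. The 2 separated higher were Bpifb1, with a log2 fold change of 0.60, and Dmbt1, with 0.92, both named after their values were seen.

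Aldh1a1, which turns retinal into retinoic acid (chromosome 19, 20492583 to 20643463, 16 exons), had 57.8 and 74.6 CPM in Ctrl 1 and 2 against 52.1 and 40.5 in A5-CKO 1 and 2. The groups did not overlap, by a margin of 5.72 CPM. The log2 fold change was -0.52 (standard error 0.31, 95% interval -1.25 to 0.22, adjusted p = 0.578 from edgeR), or -0.19 with library totals in place of TMM factors. Its locus overlaps 3 other annotated genes and it has a near paralog, Aldh1a7, so its reads are less certain than those of the other members, none of which overlaps an annotated gene. Aldh1a7 had 121, 165, 153 and 83.0 CPM with overlapping groups.

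Among the other retinoid genes 12 of 16 were tested, 2 separated higher and 6 lower, the median was -0.57 (-0.32 without A5-CKO 1, -0.38 without Ctrl 2 and -0.25 with library totals in place of TMM factors), and 0 were called in edgeR, with 2 at an unadjusted p under 0.05. Dhrs3, which reduces retinal back to retinol, had 305 and 352 CPM in Ctrl against 204 and 106 in A5-CKO (log2 fold change -1.08, unadjusted p = 0.0304 from edgeR). Rarg, a retinoic acid receptor, had 76.5 and 85.1 CPM in Ctrl against 54.7 and 42.4 in A5-CKO (log2 fold change -0.73, unadjusted p = 0.0418 from edgeR). Both were lower in both A5-CKO libraries, as was Aldh1a1, and their adjusted p was 0.528.

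Lypd2, a small LY6-domain gene of airway secretory cells (chromosome 15, 74732246 to 74734795, 3 exons), was the least abundant member in reads, with 115 and 68 in Ctrl 1 and 2 against 78 and 51 in A5-CKO 1 and 2. In CPM these were 6.80, 3.96, 3.53 and 2.18, so the groups were apart by a margin of 0.425 CPM. The log2 fold change of -0.91 had the widest interval among the members (standard error 0.60, 95% interval -2.33 to 0.51, adjusted p = 0.603 from edgeR). It was -0.42 without Ctrl 1 and -0.39 with the GC content and length correction. Of 7 tested LY6-domain relatives none was called and none had an unadjusted p under 0.05 in edgeR, 1 separated lower, and the median was -0.13, or 0.18 with library totals in place of TMM factors. The separated gene was Ly6e, a broadly expressed surface protein, with 2434 and 2475 CPM in Ctrl against 1502 and 1432 in A5-CKO. Ly6a and Ly6c1 overlapped between genotypes.

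Other genes known from club cells had negative log2 fold changes for 12 genes and positive ones for 5, none past the adjusted threshold. Of 18 genes 17 were tested, 0 were called in edgeR and 3 had an unadjusted p under 0.05. Of those tested 7 separated lower and 1 higher, where 23.5% and 20.3% of all genes tested did. The median log2 fold change was -0.48. That median was -0.13 without Ctrl 2, -0.30 without Ctrl 1, -0.73 without A5-CKO 1 and -0.14 with library totals in place of TMM factors. Cbr2, a carbonyl reductase also known in AT2 cells, had 4681 and 6611 CPM in Ctrl against 2084 and 1239 in A5-CKO (log2 fold change -1.76, standard error 0.46, unadjusted p = 0.00692). Ces1d, a carboxylesterase, had 804 and 1160.4 CPM in Ctrl against 503 and 281 in A5-CKO (log2 fold change -1.32, unadjusted p = 0.0179). Cyp2f2, the cytochrome that makes mouse club cells sensitive to naphthalene, had 362 and 672 CPM in Ctrl against 295 and 170 in A5-CKO (log2 fold change -1.15, unadjusted p = 0.0382). In all 3 the highest library was Ctrl 2, whereas Scgb1a1 was highest in Ctrl 1. Per 1000 reads of Scgb1a1, Cyp2f2 had 160.1 and 347 reads in the Ctrl libraries against 195 and 168 in the A5-CKO libraries, which overlap.

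Of 14 transcription factors of airway secretory cells 13 were tested, with 1 separated higher, 4 lower and a median of -0.26 (0.07 with library totals in place of TMM factors), and 0 called in edgeR, with 1 at an unadjusted p under 0.05. Cebpa, a factor of secretory and alveolar epithelium, had 1044 and 1532 CPM in Ctrl against 404 and 470 in A5-CKO (log2 fold change -1.56, standard error 0.38, unadjusted p = 0.00461 and adjusted p = 0.528 from edgeR). Nkx2-1, the lung lineage factor, had 412, 722, 610 and 339 CPM, and its groups overlapped. Cebpd had 194 and 235 CPM in Ctrl against 153 and 107 in A5-CKO. Cebpa and Cebpd were thus lower in both A5-CKO libraries, and Nkx2-1 was not.

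The markers of the sorted cell type were lower in A5-CKO as well, without passing the test. Of the 10 AT2 markers all were tested, 0 were called in edgeR and 2 had an unadjusted p under 0.05. In A5-CKO 7 separated lower, where 23.5% of all genes tested did. The median log2 fold change was -0.86 (-0.51 without Ctrl 2 and -0.53 with library totals in place of TMM factors). The summed level of these markers was 56704 and 82176 CPM in Ctrl against 42221 and 34897 in A5-CKO. Sftpc had 15477 and 16371 CPM in Ctrl against 10268 and 7856 in A5-CKO, and Napsa, a surfactant-processing protease, 4078 and 4505 against 1846 and 2087. The surfactant protein Sftpa1 had 15249 and 20810.2 CPM in Ctrl against 11124 and 9094 in A5-CKO, and the phosphate transporter Slc34a2 8753 and 19065 against 7556 and 7013. Sftpb had 274 and 419 against 149.99 and 168. Whether its reads are affected by a second copy of the gene on a genome patch was not tested. Counted per 1000 reads of Sftpc, Scgb1a1 had 146 and 118 reads in Ctrl 1 and 2 against 148 and 129 in A5-CKO 1 and 2. Muc1 had 135 and 138 against 136 and 149, and Hp 133 and 115 against 94.7 and 157. All 3 overlapped between genotypes, and so did Scgb3a1, Scgb3a2 and Lypd2. On this scale 0 of 9 members were lower in both A5-CKO libraries, where 1.29% of all genes tested were, and 3 of 9 were higher, where 61.1% were. Muc5b had 0.680 and 0.842 reads per 1000 of Sftpc in Ctrl and 2.63 and 3.35 in A5-CKO. Bpifa1 had 5.49 and 2.69 against 5.83 and 18.2, and Aldh1a1 3.74 and 4.56 against 5.07 and 5.16. The sum of the members had 441 and 387 against 407 and 479. Against the summed AT2 markers, Muc5b and Aldh1a1 were higher in both A5-CKO libraries and the other 7 overlapped, where 59.6% of all genes tested were higher and 1.16% lower. These ratios were chosen after seeing the data, and the part of the AT2 markers in the members' differences was not tested.

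**Figure D3:**
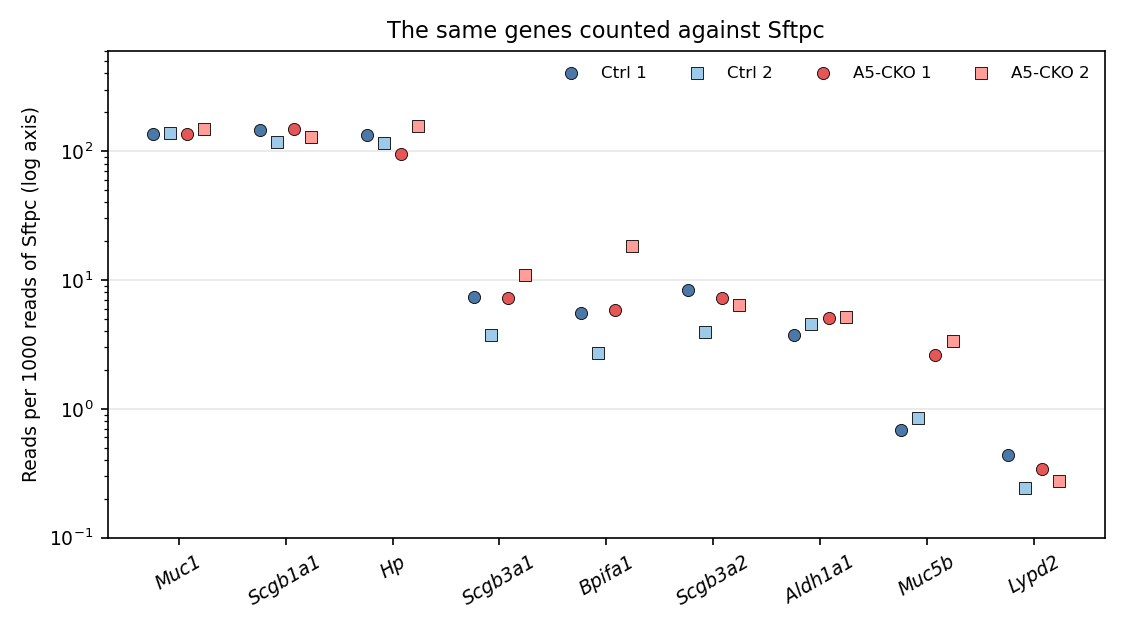
Reads of each member per 1000 reads of Sftpc (log axis), with 1 point for each of the 4 libraries. Scgb1a1 (118 to 148) and Muc1 (135 to 149) overlap between genotypes on this scale, and Muc5b stays apart (0.680 and 0.842 in Ctrl, 2.63 and 3.35 in A5-CKO).

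Markers of other cells were read for the same libraries. Of 12 markers of ciliated cells, which share the airway lining with club cells, 11 were tested. Of those tested 8 separated lower and 1 higher, where 23.5% and 20.3% of all genes tested did. The median was -1.15, or -0.84 with library totals in place of TMM factors, -1.41 without A5-CKO 1 and -1.89 without A5-CKO 2. The gene separated higher was Ccdc39, with 5.91 and 3.14 CPM in Ctrl against 23.6 and 7.78 in A5-CKO. The sum of the markers was 184 and 175 CPM in Ctrl against 173 and 68.1 in A5-CKO. Foxj1, the master factor of ciliated cells, had 21.6 and 17.9 CPM in Ctrl against 4.80 and 9.02 in A5-CKO (log2 fold change -1.51, unadjusted p = 0.0150 from edgeR), and Sntn, a protein of mature cilia, had 0 to 16 reads. Ccdc153 had 5.68 and 6.69 CPM in Ctrl against 0.543 and 1.58 in A5-CKO. Tppp3 had 108 and 104 CPM in Ctrl against 119 and 35.8 in A5-CKO, and Dynlrb2, a dynein light chain, 22.1 and 18.5 against 15.8 and 4.49. Basal cell markers were low, with sums of 8.03 to 11.6 CPM and Trp63 at 8 to 34 reads. The part of these cells in the members' levels was not tested.

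The 12 macrophage markers summed to 2777 and 489 CPM in Ctrl 1 and 2 against 333 and 2127 in A5-CKO 1 and 2, with 1 separated higher and 1 lower. The 9 mesenchymal markers summed to 428, 160, 99.7 and 1106 CPM, with 0 separated higher and 1 lower and a median log2 fold change of 0.94, or -1.72 without A5-CKO 2. Both sums were high in Ctrl 1 and A5-CKO 2. Ctrl 1 and A5-CKO 2 were also the higher libraries of their genotype for Scgb3a1, Bpifa1 and Hp. The 7 endothelial markers tested of 8 summed to 321 to 495 CPM over the 4 libraries, with Cldn5 at 0 in all, and the 6 red blood cell genes to 3.03 to 16.1 CPM. The part of these cells in the members' values was not tested. Of 12 transitional AT2 markers 3 separated higher, among them Areg and Hbegf, ligands of the EGF receptor, with a median of 0.52 (-0.26 without A5-CKO 2), and of 8 AT1 markers tested 5 separated higher and 1 lower, with a median of 0.69. Among the AT1 markers Vegfa had 173 and 208 CPM in Ctrl against 492 and 261 in A5-CKO, Aqp5 981 and 951 against 479 and 636, and Emp2 829 and 951 against 872 and 1022. In these lists 0 genes were called in edgeR. The unadjusted p from edgeR was under 0.05 for 6 ciliated genes (5 lower and 1 higher in A5-CKO), 1 macrophage, 2 transitional, 1 AT1 and 1 red blood cell gene.

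**Figure D4:**
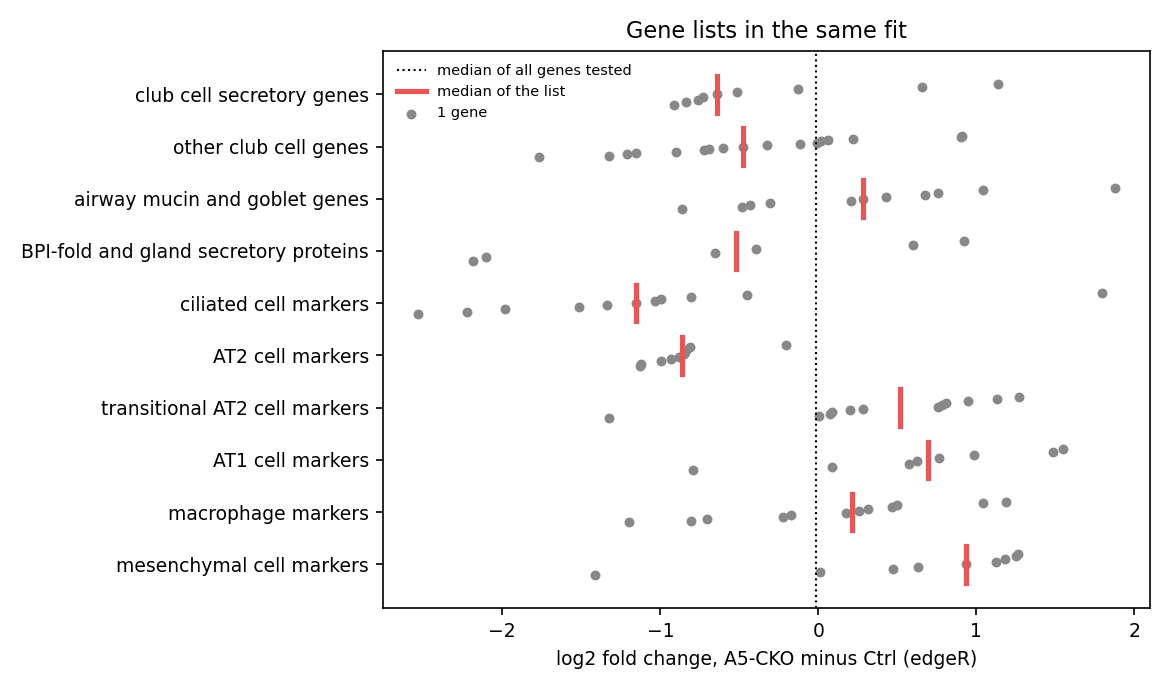
Log2 fold change (A5-CKO minus Ctrl, edgeR) of every tested gene in 10 lists, with the median of each list as a bar and the median of all genes tested (-0.02) as a dotted line. The club cell secretory genes have a median of -0.64, the other club cell genes -0.48 and the AT2 markers -0.86, and the airway mucin and goblet genes centre at 0.28.

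Among themselves, the members with the closest patterns over the 4 libraries, by Euclidean distance of log2(CPM + 1) values centred on their mean, were Scgb3a2 and Lypd2 (distance 0.281), Scgb1a1 and Lypd2 (0.311), Aldh1a1 and Muc1 (0.323) and Scgb1a1 and Muc1 (0.332). Over 9923 genes with a mean of at least 10 CPM, the genes nearest to Scgb1a1 were Gpx8, Mthfs, Adprm, Cnpy2, Nprl2, Tvp23b, Elf3 and Dcps, at distances of 0.0282 to 0.0849. Elf3, an epithelial transcription factor, had 195 and 157 CPM in Ctrl 1 and 2 against 126 and 88.1 in A5-CKO 1 and 2. The genes nearest to Scgb3a2 were Mir682, Epb41l4aos, Ndufa5, Polb and Tomm7 (0.0631 to 0.172), and those nearest to Hp were Kdelr1, Apba3, Gpaa1, Ddost and Snu13 (0.0271 to 0.0812). Kdelr1, a receptor that returns proteins to the endoplasmic reticulum, had 249 and 225 CPM in Ctrl against 119 and 149 in A5-CKO. No other member was among the nearest genes of these 3. Lypd2, the member closest to Scgb1a1 and Scgb3a2, had a mean of 4.12 CPM and was not among the genes compared. Its distances of 0.311 and 0.281 were also larger than those of the genes listed for each.

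Each other scaling moved the log2 fold changes of all members upward by a similar amount, as the plot of fold changes under each alternative shows. The sign turned for members that started nearer to 0, such as Scgb3a1, which went from -0.13 to 0.17 with library totals. With library totals in place of TMM factors, the median of all genes tested moved from -0.02 to 0.30, the count of members with both A5-CKO libraries below both Ctrl libraries went from 5 to 2 (10.1% of all genes tested, with 34.8% above), and the log2 fold change of the summed members went from -0.73 to -0.42. Muc5b was positive in every alternative run, from 0.81 with the GC content and length correction to 1.98 per summed AT2 marker count, and was higher in both A5-CKO libraries under each scaling.

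**Figure D5:**
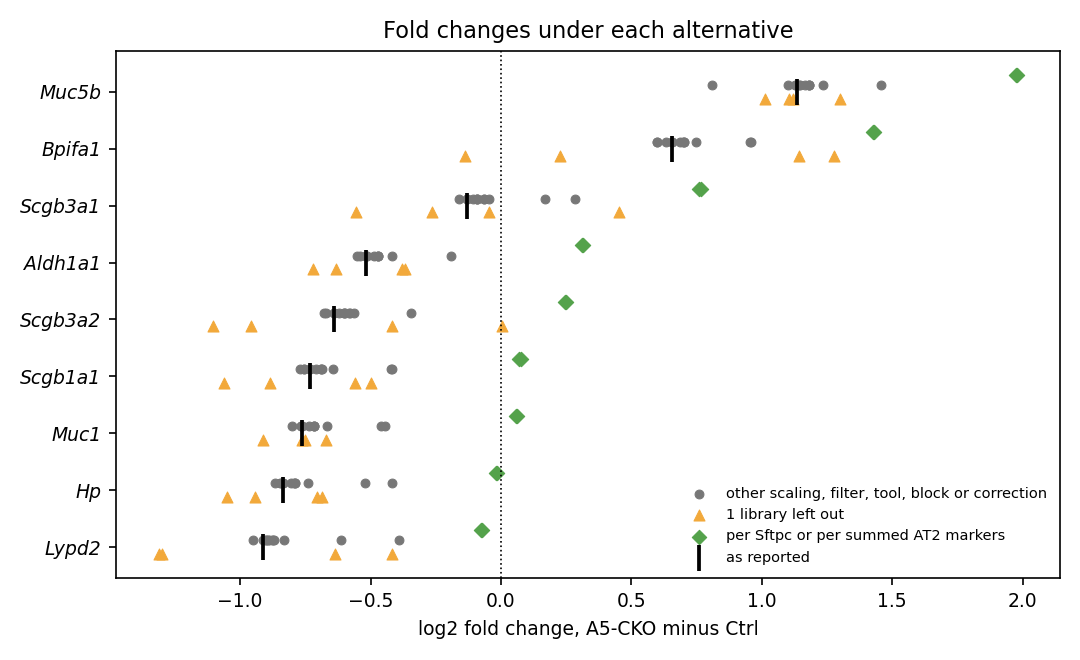
Log2 fold change of each member as reported (black bar), under other scalings, filters, tools, a replicate block or a GC content and length correction (grey), with 1 library left out (orange) and per Sftpc or per summed AT2 markers (green). Muc5b lies between 0.81 and 1.98, while Scgb1a1 (-0.73 as reported) comes to 0.07 per Sftpc and Scgb3a1 has points on both sides of 0.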

How the data were processed

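RNA-seq libraries of sorted GFP+ AT2 cells from 2 Ctrl and 2 A5-CKO samples were analysed. The authors deposited raw read counts per gene with no normalization, made with Trim Galore 0.6.10, HISAT2 2.2.1 on mm10 and featureCounts 2.0.3 per the labels, after removal of ribosomal RNA reads and duplicates. Whether strand was used in counting is not given in the sources used here. Duplicate removal lowers the counts of abundant genes such as Scgb1a1 more than those of rare ones.

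From these counts, the quasi-likelihood test of edgeR 4.0.16 (R 4.3.3, two-sided, default settings of glmQLFit and glmQLFTest) was run after filterByExpr, TMM scaling and estimateDisp, with Benjamini-Hochberg adjustment over 16661 genes. The biological coefficient of variation was 41.6%. CPM used TMM-scaled library sizes (factors 0.860 to 1.13). A standard error is |log2 fold change| over the root of its F statistic. Replicates differed well beyond counting noise, with a chi-square over its degrees of freedom of 120.3 for Ctrl and 111 for A5-CKO (99.1 for Ctrl 1 with A5-CKO 2, the closest pair), so each counted as 1 replicate.

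The members and gene lists were chosen with earlier results of these data known. The rule for named genes was all members, the 3 most abundant and the 2 with the smallest p of each list described gene by gene (basal, macrophage, mesenchymal, endothelial, red blood cell and transitional markers are given by sums, counts or medians), and the genes nearest to Scgb1a1, Scgb3a2 and Hp. Scgb1c1, Spdef, Sntn, Trp63, Cldn5, Ager, Pdpn, Bpifb1, Dmbt1 and Ccdc39 were named as defining genes or after their values were seen. Ratios to Sftpc and to summed AT2 markers were added after seeing the data. Alternatives used DESeq2 1.42.0, limma 3.58.1 (voom), other scalings and filters, a robust fit, a prior count of 2, a replicate block, a GC content and length correction with splines of 4 degrees of freedom (15237 genes, 91.5% of those tested), and each library left out. Coordinates are from RefSeq on GRCm38.p6, the build of the counts, and exon lengths from GENCODE. Single-cell and MeRIP-seq data were not used here.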

Additional observations from a re-analysis of the deposited data

How the results depend on the processing

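With 2 libraries in each group and a biological coefficient of variation of 41.6%, the intervals of the members are wide, and a missed threshold does not show that levels were equal. No gene was called in edgeR or limma voom under any alternative, while DESeq2 called 55 of the same genes and 59 with default filtering, none of them a member. The adjusted p of Muc5b ranged from 0.194 (DESeq2 on the same genes) to 0.878 (without A5-CKO 1). The labels do not say whether the replicate numbers pair the samples. Deviations of same-numbered libraries from their group means correlated at -0.348. With 2 libraries in each group this value cannot show pairing or its absence. With the replicate number as a block, 0 genes were called and 754 had an unadjusted p under 0.05 against 1530 without it, and the log2 fold change was -0.76 for Scgb1a1, -0.84 for Hp and 1.15 for Muc5b.

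The direction turned under some alternative for Scgb3a1, Scgb3a2 and Bpifa1, and per AT2 marker count also for Scgb1a1, Aldh1a1 and Muc1. Scgb3a1 (-0.13) was 0.17 with total counts only and 0.29 with the GC content and length correction. Leaving out each library in turn gave -0.56 to 0.45 for Scgb3a1, -1.11 to 0.0041 for Scgb3a2 (the highest without Ctrl 1), and -0.14 to 1.28 for Bpifa1 (the lowest without A5-CKO 2). Per Sftpc count the log2 fold change was 0.070 for Scgb1a1, 0.25 for Scgb3a2, 0.76 for Scgb3a1, 0.31 for Aldh1a1 and 0.057 for Muc1. Per summed AT2 marker count it was 0.075, 0.25, 0.77, 0.31 and 0.062 in that order. The count of members with both A5-CKO libraries below both Ctrl libraries was 5, where 23.5% of all genes tested separated lower. It was 2 with total counts only (10.1% of all genes), 0 per Sftpc count (1.29%) and 0 per summed AT2 marker count (1.16%). With a library left out it ran from 5 to 7, where 34.8% to 40.7% of all genes tested separated lower. The count above was 1 (20.3% of all genes), and became 3 per Sftpc count (61.1%) and 2 per summed AT2 marker count (59.6%). It ran from 1 to 3 with a library left out, being 3 without Ctrl 1 and 2 without A5-CKO 1, where 33.3% to 36.2% of all genes separated higher. The log2 ratio of the summed members was -0.73, and -0.42 with total counts only. The scaling shifts were not particular to the members. With total counts only, the median of all genes tested moved from -0.02 to 0.30, and Sftpc, used as a denominator, had itself a log2 fold change of -0.81. The cause of the shifts with a library left out or with the GC content and length correction was not tested. Scgb1a1, Hp, Muc1, Aldh1a1 and Lypd2 stayed negative, and Muc5b positive, under the alternatives that keep scaling by library.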
